A study of Sus scrofa with 4 samples.

Results

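Immediate early genes are the first genes a cell switches on when a growth factor, stress or other signal reaches the nucleus. The extracellular signal-regulated kinase (ERK) branch of the MAPK pathway drives many of them, and it also induces its own brakes, the DUSP phosphatases and the Sprouty and SPRED proteins. Many of these transcripts are short-lived, so their level follows recent signalling closely, and in cultured testis cells they respond to serum, growth factors and handling. A list of 33 such genes was followed in cells with knockdown of ZBTB16, a zinc finger transcription factor used as a marker of undifferentiated spermatogonia. The list holds 18 transcription factors, 9 feedback genes and 6 other immediate early genes, out of 26921 genes or loci in each table. Members were found by gene symbol, and 32 of the 33 had a row.

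Messenger RNA was sequenced from 2 libraries of ZBTB16 knockdown cells and 2 libraries of control cells, whose genotype is given as WT. All 4 are labelled as immature spermatogonia from pig testis, with no age given. The series plans knockdown in primary cells with a lentiviral hairpin, and the labels do not say whether control cells received a vector, so an effect of the virus and one of the knockdown cannot be told apart. The knockdown libraries held 18500447 and 16548342 expected counts, and the control libraries 17283536 and 15983390. ZBTB16 itself had 10.2 and 9.92 scaled CPM in knockdown cells, against 13.0 and 12.9 in control cells (0.779-fold, adjusted p = 0.00338, edgeR; 0.113 with DESeq2). Scaled CPM is the read count over the library total after scaling by the trimmed mean of M-values, and it is compared only within a gene.

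The libraries hold more than germ cells. The summed FPKM, a level corrected for transcript length and sequencing depth, of 9 germ cell markers was 107 and 102 in knockdown cells, against 142 and 141 in control cells, most of it UCHL1, which fell. By gene 3 of the 9 rose (DAZL 1.46-fold, PIWIL2 1.34-fold and SALL4 2.02-fold) and 2 fell (DND1 0.414-fold and UCHL1 0.794-fold). SALL4 had only 38 and 38 counts in knockdown cells, against 18 and 18 counts in control cells. DDX4, which defines germ cells, had 2.01 and 1.86 FPKM in knockdown cells and 2.3 and 1.96 FPKM in control cells. The 9 Sertoli cell markers summed to 946 and 972 FPKM in knockdown cells, against 783 and 771 FPKM in control cells, with 5 genes higher and 2 lower. The 7 peritubular muscle markers summed to 5320 and 5220 FPKM in knockdown cells and 5490 and 5400 FPKM in control cells, with 4 higher and 3 lower. The 8 macrophage markers summed to 69.8 and 64.7 FPKM in knockdown cells, against 127 and 131 FPKM in control cells, with 1 higher and 4 lower of 7 tested. No marker of these lists was at 0 in all libraries. The FPKM of all genes summed to 634962 and 632881 in the knockdown libraries, against 739808 and 742383 in the control libraries. Marker sums of the 2 groups are thus not on one scale and lean low in knockdown cells. By counts the median log2 change was 0.16 for the germ cell markers, 0.33 for the Sertoli, 0.12 for the peritubular and -0.34 for the macrophage markers. Immediate early genes are used by all of these cell types, so a change in the mix of cells and a change of RNA per cell cannot be told apart for any member, and the part of the mix in these results was not tested.

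Of the 31 members with enough counts to test, 11 rose, 9 fell and 11 did not pass in knockdown cells. Calls come from edgeR's quasi-likelihood test at an adjusted p (Benjamini-Hochberg) below 0.05, and only called genes are said to have risen or fallen. That rule called 46.4% of all 15763 genes tested, 22.7% as higher and 23.8% as lower. Highly expressed genes are called more often: among genes with a mean of at least 200 counts 61.8% were called, and 17 of the 27 members in that range (63.0%). As a group the members were therefore called about as often as other genes of this depth. Their median log2 fold change was 0.04, and the median size of change was 0.21 on the log2 scale, as it was over all genes tested. No member changed 2-fold. The scaled CPM of the groups did not overlap for 28 of the 31 members and for 70.5% of all genes tested. With a mean of at least 200 counts it did not overlap for 24 of 27 members and for 7678 of 9497 genes. DESeq2 called 9 members higher and 6 lower, among 28.2% of all genes, and limma on log2(FPKM + 1) called 8 higher and 10 lower, among 45.3% of the genes it tested. The limma calls over all genes split unevenly, with 2038 higher and 3887 lower, against 3574 higher and 3745 lower by counts.

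**Figure D1:**
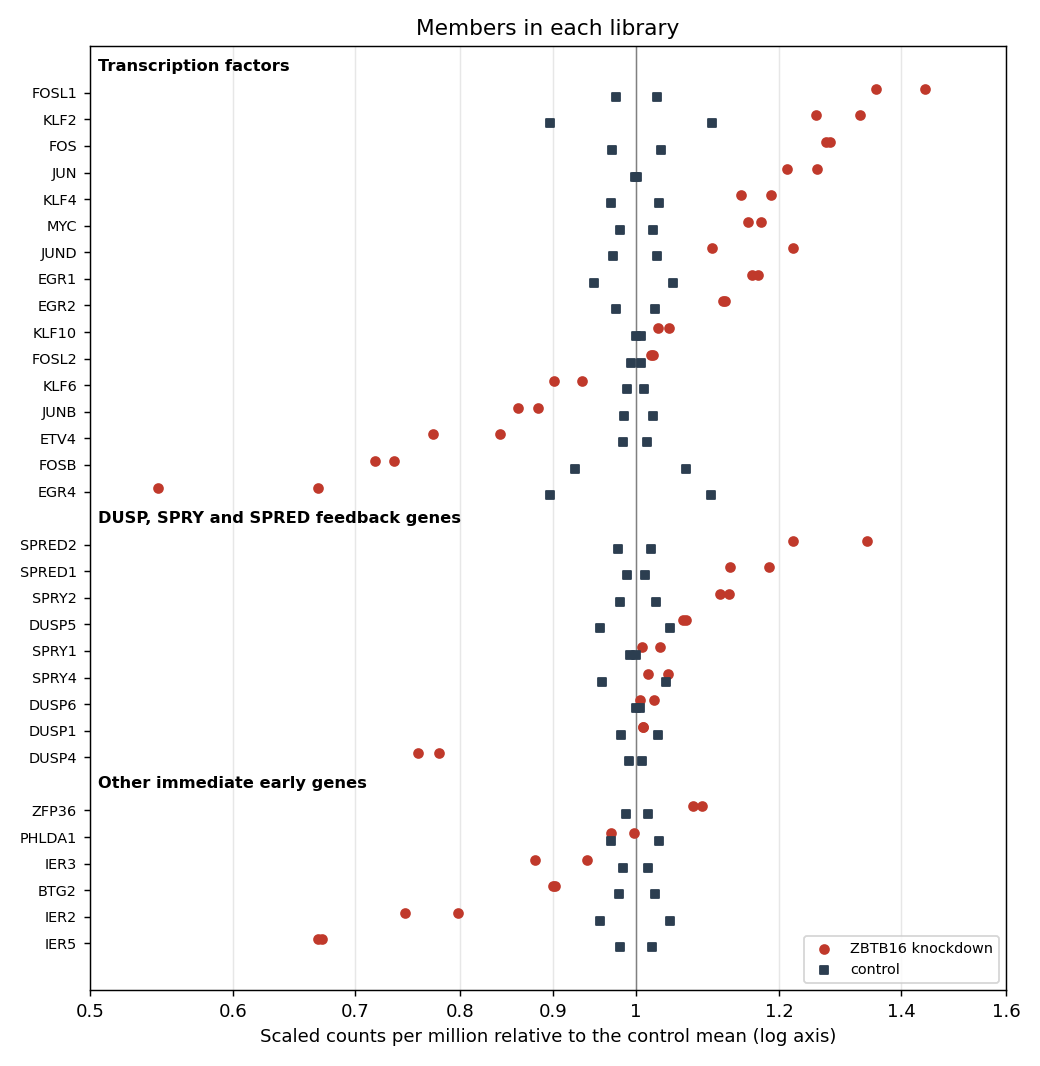
Scaled CPM of the 31 tested members in each library, divided by the mean of the 2 control libraries (log axis), with knockdown libraries as circles and control libraries as squares. FOSL1, FOS and JUN lie to the right in both knockdown libraries, IER5, IER2, DUSP4 and FOSB to the left, and DUSP1, DUSP6, SPRY1 and SPRY4 lie on or near the control values.

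Classical immediate early promoters carry binding sites for SRF (the CArG box) and for CREB and ATF factors (the cyclic AMP response element, CRE). In the 250 bases before annotated starts, read from RefSeq on Sscrofa 11.1 and searched on both strands, a CArG box stood before 2 of 32 members (IER2 and DUSP5, 6.25%) and before 1.31% of 19556 protein-coding genes. The full CRE, TGACGTCA, stood before 3 members (JUND, DUSP1 and BTG2, 9.38%) and before 1.7% of all genes. Only 2 and 3 members carry these sites, so whether a site goes with a change was not tested. The windows holding the sites are given as sequence only. Capitals mark the CArG box in the first pair and the CRE in the other windows. Each line holds 100 bases on the strand of the gene.
IER2: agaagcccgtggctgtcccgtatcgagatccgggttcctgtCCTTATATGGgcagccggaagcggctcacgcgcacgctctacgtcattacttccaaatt
DUSP5: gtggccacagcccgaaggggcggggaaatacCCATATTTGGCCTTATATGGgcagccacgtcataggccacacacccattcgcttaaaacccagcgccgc
JUND: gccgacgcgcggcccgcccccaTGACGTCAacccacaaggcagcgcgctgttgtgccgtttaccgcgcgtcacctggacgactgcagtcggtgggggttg
DUSP1: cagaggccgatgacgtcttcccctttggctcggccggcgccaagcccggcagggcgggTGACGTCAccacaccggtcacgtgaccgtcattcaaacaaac
BTG2: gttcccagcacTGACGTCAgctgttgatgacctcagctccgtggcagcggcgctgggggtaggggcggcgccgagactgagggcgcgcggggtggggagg

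The IER2 window lies at chr2:65912642-65912741 on the minus strand and holds 1 CArG box, 200 to 209 bases before the annotated start. The DUSP5 window lies at chr14:120906230-120906329 on the plus strand and holds 2 CArG boxes side by side, 60 to 79 bases before the start. IER2 fell and DUSP5 did not pass the test. After smooth trends of transcript length and GC content were removed, IER2 was still called lower (log2 -0.31). DUSP5 was then called higher (log2 0.17, adjusted p = 0.0247, edgeR). The JUND window is at chr2:59530781-59530880, the DUSP1 window at chr16:51457814-51457913 and the BTG2 window at chr9:64033603-64033702, all on the plus strand. JUND rose, while DUSP1 and BTG2 did not pass. After the length and GC trends were removed, JUND (log2 0.44) and DUSP1 (0.18, adjusted p = 3.33e-05, edgeR) were called higher. BTG2 was then called lower (log2 -0.16, adjusted p = 0.0361, edgeR). The CRE core TGACG, which is also found within the full CRE, stood before 12 members (37.5%) and 19.6% of all genes. GGGCGG, the letters bound by Sp and KLF factors, stood before 20 members (62.5%) and 45.9% of all genes. The AP-1 site TGACTCA stood before 1 member (KLF10, 3.12%) against 2.9% of all genes, and the EGR site GCGNGGGCG before 3 (EGR1, KLF2 and KLF6, 9.38%) against 9.5%. The ETS site CCGGAAGT was in 0 of the 32 windows and in 2.87% of all. These matches are letters in one window only. The annotated start of FOS is its start codon, so the letters before FOS are not its promoter. Other annotated starts lie further from the coding part along the genome, such as JUNB (3798 bases), FOSB (1497), IER2 (1206) and EGR1 (888). Whether transcription begins at the annotated starts was not tested. A site absent from a window is therefore not shown to be absent from the promoter.

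Among the transcription factors, 16 were tested: 8 rose, 5 fell and 3 missed the threshold. The called share was 81.2%, against 46.4% of all genes tested and 61.8% of genes with a mean of at least 200 counts. Members of the same family went opposite ways, and calls over all genes were also split, 22.7% higher and 23.8% lower. FOS and JUN proteins pair to form AP-1, the factor that carries many immediate early responses to later genes. FOSL1, which encodes the FOS relative FRA-1, had 85.3 and 80.2 scaled CPM in knockdown cells, against 60.7 and 57.6 in control cells. FOS had 51.7 and 51.4 in knockdown cells, against 41.7 and 39.2 in control cells. Both knockdown libraries lay above both controls for each gene, a rise of 1.4-fold for FOSL1 (log2 0.48, SE 0.0465, adjusted p = 1.85e-18, edgeR) and of 1.27-fold for FOS (log2 0.35, SE 0.0555, adjusted p = 2.03e-08, edgeR). FOSB moved the other way, with 8.98 and 8.76 scaled CPM in knockdown cells, against 11.3 and 13.0 in control cells (0.731-fold, adjusted p = 4.33e-04, edgeR). FOSB missed the threshold with DESeq2 (adjusted p = 0.0514). FOSL2, which encodes FRA-2, stayed at 315 and 316 in knockdown cells, against 307 and 311 in control cells, with a 95% interval of the log2 change from -0.02 to 0.08.

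The JUN family split as well. JUN had 105 and 101 scaled CPM in knockdown cells, against 83.3 and 83.5 in control cells (1.24-fold, SE of log2 0.0412, adjusted p = 4.35e-11, edgeR). JUND had 92.9 and 83.8 in knockdown cells, against 78.2 and 73.9 in control cells (1.16-fold, adjusted p = 9.13e-06, edgeR). The control libraries agreed closely for JUN, while the JUND values of the 2 knockdown libraries stood further apart, and without knockdown replicate 1 the log2 change of JUND was 0.14 in place of 0.22 (adjusted p = 0.0396, edgeR). With limma on log2(FPKM + 1) JUND did not pass (adjusted p = 0.119). JUNB, which can oppose JUN in growth control, had 121 and 118 scaled CPM in knockdown cells, against 135 and 140 in control cells (0.874-fold, SE of log2 0.0358, adjusted p = 1.13e-06, edgeR).

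On the FPKM scale, which allows levels of different genes to be set side by side, FOSL2 made up 37.6% and 38.6% of the FOS family in knockdown cells, against 42.6% and 43.6% in control cells. FOSL1 made up 30.6% and 29.3% in knockdown cells, against 25.8% and 25.3% in control cells. FOS held about the same share in every library, 30.7% and 31.0% in knockdown cells and 30.0% and 29.3% in control cells, and FOSB under 2% (1.07% and 1.06% in knockdown cells, 1.55% and 1.84% in control cells). By FPKM JUN was the main JUN gene, at 57.5% and 58.4% of the family in knockdown cells and 54.6% and 55.3% in control cells. JUNB made up 12.3% and 12.7% in knockdown cells, against 15.6% and 16.3% in control cells. These shares depend on the annotated transcript lengths. The FOS model is 1143 bases long and holds the coding part alone, and the JUNB model is 5350 bases long with 3798 bases before the start codon. The JUN model is 1211 bases long. By counts JUNB was above JUN in every library, with 2228 and 1945 against 1933 and 1660 in knockdown cells. In control cells JUNB had 2343 and 2244 counts and JUN 1447 and 1341.

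**Figure D2:**
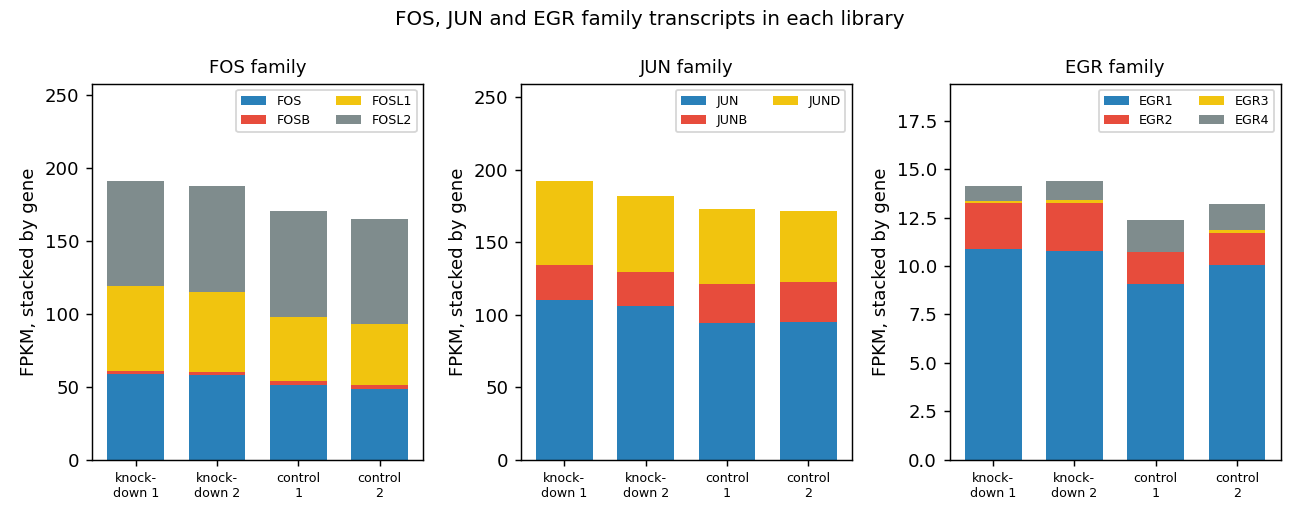
FPKM of the FOS, JUN and EGR family genes stacked for each library, with knockdown libraries on the left of each panel and control libraries on the right. The FOS family sums to 191 and 187 FPKM in knockdown cells, against 170 and 165 FPKM in control cells, and most of the difference is in FOSL1 and FOS. FPKM of all genes summed to 634962 and 632881 in knockdown and 739808 and 742383 in control libraries. The sums of the 2 groups are therefore not on one scale.

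EGR genes encode zinc finger factors that ERK signalling induces through SRF. EGR1 had 38.3 and 38.0 scaled CPM in knockdown cells, against 31.1 and 34.4 in control cells. This was a rise of 1.17-fold (adjusted p = 0.00168, edgeR), but without control replicate 1 the log2 change was 0.14 in place of 0.22 and did not pass (adjusted p = 0.142). DESeq2 did not call it (0.088). EGR4, which male mice need for normal sperm formation, had 1.74 and 2.13 in knockdown cells, against 3.51 and 2.86 in control cells. It had the largest change by size among the members, 0.603-fold (log2 -0.73, 95% interval -1.19 to -0.27, adjusted p = 0.00655, edgeR), on 32 and 35 counts in knockdown cells and 61 and 46 counts in control cells. Its call was lost without control replicate 1 (log2 -0.57, adjusted p = 0.139), without knockdown replicate 1 (log2 -0.59, adjusted p = 0.0972) and with DESeq2 (0.146). EGR3 had 6 and 10 counts in knockdown cells and 0 and 7 counts in control cells, too few to pass the low-count filter.

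EGR2 gave different answers by counts and by FPKM. It had 6.86 and 6.88 scaled CPM in knockdown cells, against 5.99 and 6.29 in control cells (log2 0.16, 95% interval -0.12 to 0.45, adjusted p = 0.376, edgeR). Its FPKM was 2.39 and 2.48 in knockdown cells, against 1.61 and 1.65 in control cells (log2 0.39 on the log2(FPKM + 1) scale, adjusted p = 0.0131, limma). EGR2 has 2 annotated transcripts, of 1500 and 6732 bases. The deposited mean length of the gene, weighted by isoform, was 3113 and 3024 bases in knockdown cells, against 4063 and 4158 bases in control cells. With the effective length of each library as an offset the log2 change was 0.63 (adjusted p = 6.55e-04, edgeR). The gene overlaps ADO on the other strand by 1300 bases, and ADO rose 1.19-fold (adjusted p = 7.56e-04, edgeR). The sources used here do not give a strand setting, so reads of the overlap cannot be assigned to either gene.

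KLF factors and MYC act in growth and cell identity, and their changes were small. MYC had 79.7 and 81.0 scaled CPM in knockdown cells, against 70.6 and 67.7 in control cells (1.16-fold, adjusted p = 1.67e-05, edgeR). KLF4 had 76.3 and 73.5 in knockdown cells, against 66.2 and 62.3 in control cells (1.16-fold, adjusted p = 2.19e-05, edgeR). For both genes every knockdown library was above every control library, and the calls held without any 1 library. KLF2 had 8.11 and 7.67 in knockdown cells, against 5.47 and 6.72 in control cells (1.3-fold, adjusted p = 0.0194, edgeR). This call was lost without control replicate 1 (log2 0.23, adjusted p = 0.312) or knockdown replicate 1 (log2 0.33, adjusted p = 0.115), and with DESeq2 (0.224). KLF6 had 76.5 and 79.3 in knockdown cells, against 85.8 and 84.0 in control cells (0.917-fold, adjusted p = 0.0117, edgeR). Its call was lost without control replicate 1 (adjusted p = 0.112), without knockdown replicate 1 (0.12) and with DESeq2 (0.179). KLF10, a gene induced by TGF-beta, did not pass, with a 95% interval of the log2 change from -0.02 to 0.11.

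ETV4, an ETS factor whose transcript is a common readout of ERK activity, had 50.9 and 46.8 scaled CPM in knockdown cells, against 59.5 and 61.4 in control cells. It fell to 0.810 times control (log2 -0.30, SE 0.0516, adjusted p = 1.39e-07, edgeR). NR4A1, an orphan nuclear receptor, has no row under its symbol. An unannotated locus carries NR4A1 in the deposited gene name column, and RefSeq lists NR4A1 on chromosome 5 as a pseudogene in this assembly. That locus had 33.2 and 31.3 scaled CPM in knockdown cells, against 47.0 and 46.4 in control cells (0.692-fold, adjusted p = 1.58e-14, edgeR). It is given here apart from the members, since the gene identity rests on the deposited name alone.

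Of the 9 feedback genes, 3 rose, 1 fell and 5 did not pass. The called share of 44.4% is near the 46.4% of all genes tested. It is below the 61.8% of genes with a mean of at least 200 counts. DUSP4, a nuclear phosphatase that switches off ERK and JNK, had 182 and 187 scaled CPM in knockdown cells, against 238 and 242 in control cells. It fell to 0.769 times control (log2 -0.38, SE 0.0293, adjusted p = 2.57e-25, edgeR), with the smallest adjusted p of any member. The other DUSP genes did not follow it. DUSP6, the cytoplasmic ERK phosphatase most used as an ERK readout, had 17.4 and 17.7 in knockdown cells and 17.3 and 17.4 in control cells (log2 0.02, 95% interval -0.15 to 0.19). DUSP1, which acts mainly on p38 and JNK, had 108 and 108 in knockdown cells and 110 and 105 in control cells (log2 0.00, 95% interval -0.07 to 0.08). DUSP5, a nuclear ERK phosphatase, had 31.0 and 30.9 in knockdown cells and 30.4 and 27.8 in control cells (log2 0.09, 95% interval -0.05 to 0.22). The 95% interval of DUSP4 ran from -0.44 to -0.32 and met none of these 3.

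Sprouty and SPRED proteins restrain the step that leads from growth factor receptors through RAS to ERK. SPRED2 had 53.4 and 48.6 scaled CPM in knockdown cells, against 38.9 and 40.6 in control cells (1.29-fold, log2 0.36, SE 0.0563, adjusted p = 9.49e-09, edgeR). SPRED1 had 95.1 and 100 in knockdown cells, against 83.5 and 85.4 in control cells (1.16-fold, adjusted p = 7.30e-06, edgeR). SPRY2 had 170 and 168 in knockdown cells, against 155 and 148 in control cells (1.11-fold, adjusted p = 1.80e-05, edgeR). All 3 genes had both knockdown libraries above both controls. SPRED1 lost its call when the trend of transcript length was removed (log2 0.08, adjusted p = 0.139), and it overlaps the locus LOC106506784 on the other strand by 1115 bases. SPRY2 did not pass with limma on log2(FPKM + 1) (adjusted p = 0.0645). SPRY1 and SPRY4 did not pass, with 95% intervals of the log2 change from -0.03 to 0.10 and from -0.07 to 0.15. SPRY1 shares 2830 bases with LOC106504731 on its own strand, and reads in that stretch could belong to either.

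Among the 6 other immediate early genes 3 fell, 0 rose and 3 missed the threshold. The called share of these 6 was 50%, against 46.4% of all genes tested and 61.8% of genes with a mean of at least 200 counts. At an unadjusted p under 0.05 in edgeR 0 were higher, as with DESeq2 and limma, but once the trend of length was taken out ZFP36 was called higher, at a log2 change of 0.27 (adjusted p = 1.19e-04, edgeR), and with length and GC trends removed both ZFP36 and IER3 were. The 3 IER genes fell. IER5, a cofactor of heat shock factor signalling, had 36.6 and 36.4 scaled CPM in knockdown cells, against 53.4 and 55.6 in control cells (0.671-fold, log2 -0.58, SE 0.0560, adjusted p = 4.14e-18, edgeR). IER2 had 32.3 and 30.2 in knockdown cells, against 42.3 and 38.7 in control cells (0.773-fold, adjusted p = 1.11e-07, edgeR). IER3, a regulator of cell survival, had 219 and 234 in knockdown cells, against 245 and 253 in control cells (0.908-fold, adjusted p = 1.24e-05, edgeR). Without knockdown replicate 1 the log2 change of IER3 was -0.09 in place of -0.14. With the length trend removed it was 0.04 (adjusted p = 0.31, edgeR). BTG2, an antiproliferative gene that p53 induces, had 29.7 and 29.6 in knockdown cells, against 32.2 and 33.7 in control cells (log2 -0.15, adjusted p = 0.0513, edgeR; 0.0232 with limma on log2(FPKM + 1)). ZFP36, which encodes an RNA-binding protein that promotes decay of AU-rich transcripts, had a 95% interval of the log2 change from -0.01 to 0.24. PHLDA1, a growth factor-induced PH-domain gene, had one from -0.11 to 0.06.

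Many members are genes of few exons. Of the 31 tested, 16 (51.6%) had fewer than 4 exons in any annotated transcript, against 13.7% of all genes tested, while ETV4 had up to 14 and SPRY1 up to 9. Their median transcript length was 2823 bases, against 3077 over all genes tested, and their median GC content was 57.0%, against 51.2%. Chromosome 2 holds 7 of the 33 members. IER2 (65909638 to 65912491) and JUNB (66214086 to 66219435), which both fell, lie near each other there. JUND (59530991 to 59532846) and KLF2 (61270733 to 61273037), which both rose, lie further apart. Whether neighbouring genes changed alike was not tested.

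Across all genes the changes trended with transcript length and GC content, and the libraries also differed in fragment size. Whether the trends came from fragment size was not tested. The mean fragment was 266.4 and 267.3 bases in the knockdown libraries, against 325.7 and 326.7 bases in the control libraries, so fragment size and knockdown cannot be told apart. Across all genes the median log2 fold change was -0.19 for transcripts of 1000 to 2000 bases and 0.10 for those of 4000 to 8000 bases. Among called members with transcripts under 2000 bases FOS, JUN, KLF2, FOSL1 and JUND rose and IER3 fell. Among those over 4000 bases SPRED1 and SPRED2 rose and FOSB, JUNB, KLF6 and DUSP4 fell. With the length trend alone removed, 12 members were called higher and 9 lower, among 40.9% of all genes. With smooth trends of length and GC content removed from each library, the log2 change was 0.64 for FOS, 0.61 for JUN, 0.70 for FOSL1, -0.21 for JUNB, -0.47 for DUSP4 and -0.41 for IER5. With that correction 10 of the 11 risen members and 8 of the 9 fallen members were called in the same direction. SPRED1 was at 0.00 (adjusted p = 0.987, edgeR) and IER3 turned to 0.12 (adjusted p = 4.66e-04, edgeR). ZFP36 (log2 0.32), DUSP1 (0.18) and DUSP5 (0.17) then passed as higher, and PHLDA1 (-0.22) and BTG2 (-0.16) as lower. This setting called 39.4% of 15283 genes.

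**Figure D3:**
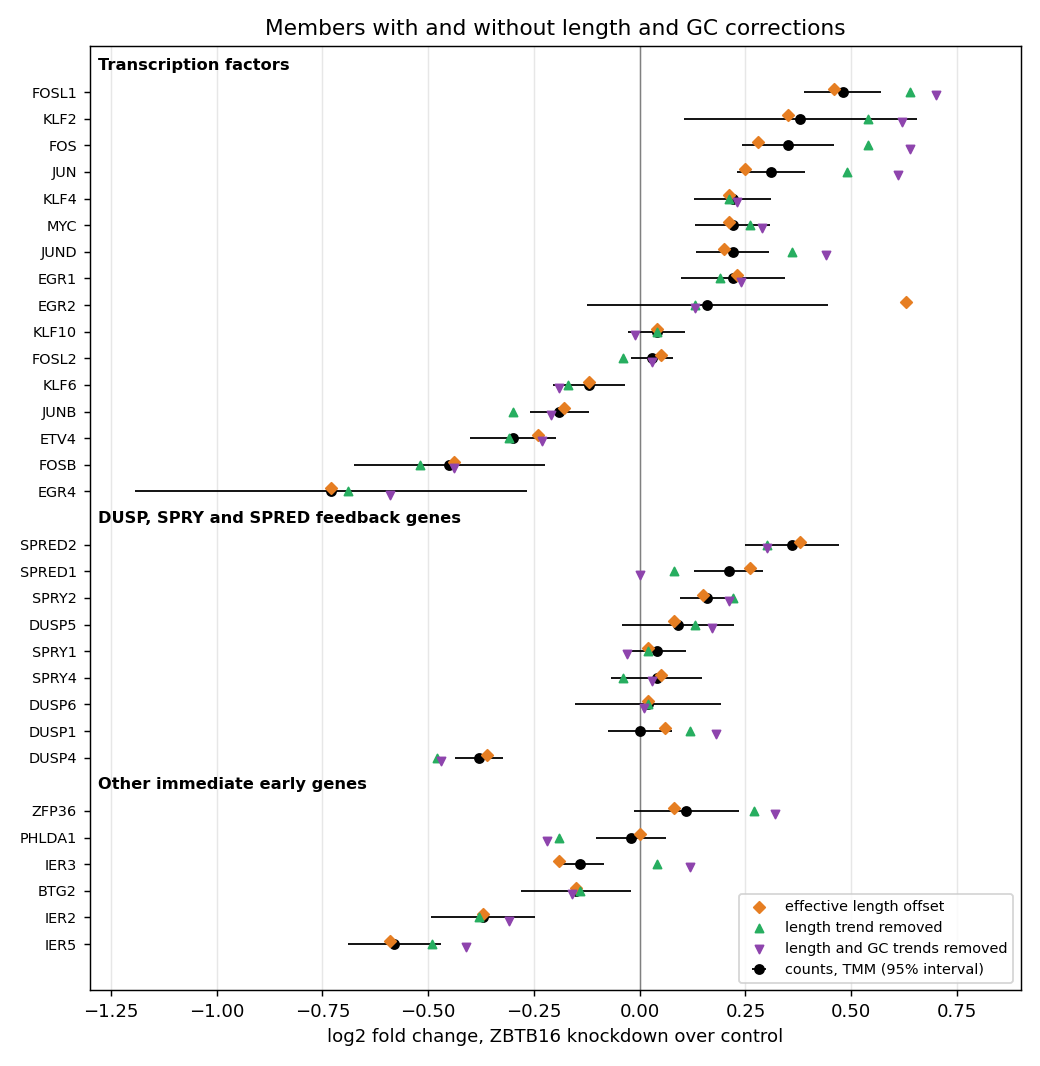
Log2 fold change (knockdown over control) of the 31 tested members from counts with its 95% interval, and under 3 corrections for transcript length and GC content. FOSL1, FOS, JUN, DUSP4, IER2 and IER5 keep their side of 0 under all 3, SPRED1 moves to 0.00 and IER3 to 0.12 with both trends removed, and EGR2 moves to 0.63 with the effective length as an offset.

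**Figure D4:**
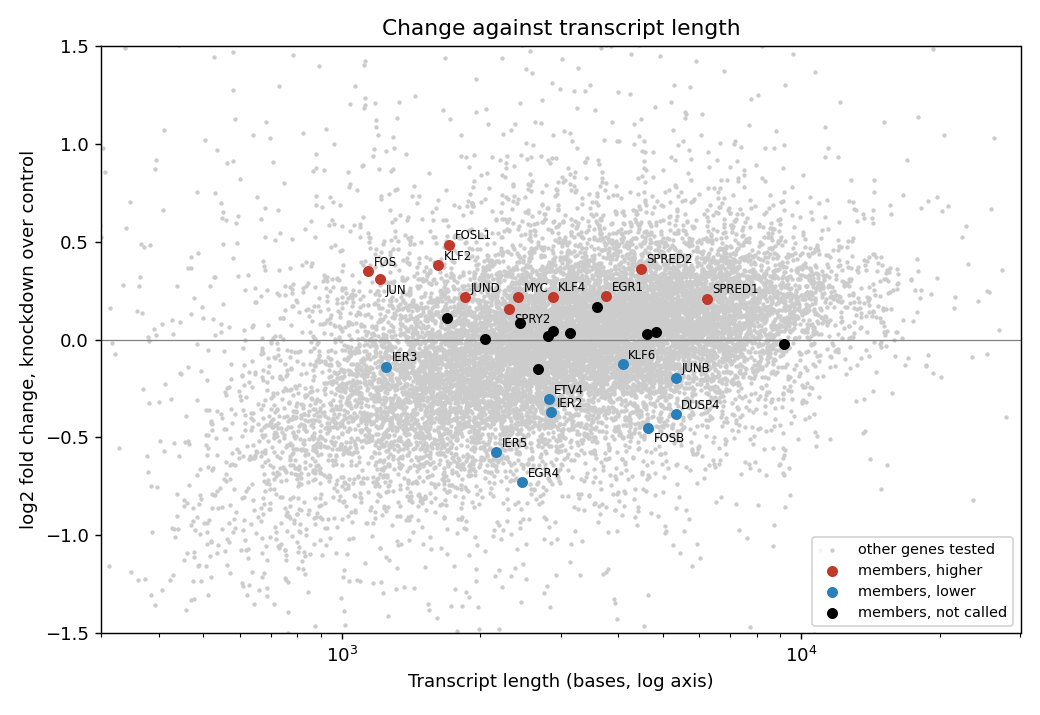
Log2 fold change (knockdown over control) against transcript length in bases (log axis) for the genes tested, in grey, and the 31 members by their call. Genes beyond the axes are not drawn. The short members FOS and JUN lie above 0, where many genes of their length lie below it.

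Genes around the members in the pathway were counted from lists of the cascade and its targets. Of 23 genes from RAS to ERK, 11 rose, 3 fell and 9 did not pass, with a median log2 change of 0.09. SOS1, which loads RAS with GTP, had 19.60 and 20.29 FPKM in knockdown cells, against 14.53 and 14.90 in control cells (log2 0.47). RASA1 and NF1, which switch RAS off, had log2 changes of 0.43 and 0.29, and the adaptor GAB1 0.39. The 3 that fell, named after their values were seen, were HRAS (0.680-fold), GRB2 (0.901-fold) and MAP2K1 (0.890-fold). Of 14 factors that act on immediate early promoters, 7 rose, 1 fell and 6 did not pass (median 0.16). The SRF coactivators MRTFA and MRTFB, listed in the files as MKL1 and MKL2, rose by log2 changes of 0.33 and 0.32, the CREB coactivator CRTC2 by 0.42 and the ETS factor ELK3 by 0.24. RPS6KA4, a kinase that acts on CREB and is also named after its value was seen, fell to 0.839 times control. SRF, given for its role, did not pass (1.01-fold, 95% interval of the log2 change -0.08 to 0.10).

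Among 24 tested immediate early genes outside the members, 9 rose, 6 fell and 9 did not pass (median -0.01). KLF9, a KLF factor named after its value was seen, had the largest change of the list, with 27 and 32 counts in knockdown cells against 15 and 8 in control cells (2.45-fold, adjusted p = 0.00141, edgeR). ZFP36L2 and ZFP36L1, relatives of ZFP36, rose by log2 changes of 0.61 and 0.33, and KLF5 by 0.56. MCL1, a survival gene of the BCL2 family, fell with 131.10 and 133.16 FPKM in knockdown cells, against 159.45 and 159.39 in control cells (log2 -0.23). Other falls, singled out after their values were seen, were the stress factor ATF3 (0.706-fold), MAFF (0.751-fold) and NR4A2 (0.795-fold), a relative of NR4A1. Also outside the naming rule, PLAUR fell to 0.924 times control and RHOB to 0.912 times by counts, but RHOB had 72.01 and 76.85 FPKM in knockdown cells and 72.61 and 63.07 FPKM in control cells, which overlap. Of 16 further feedback genes, 9 rose, 2 fell and 5 did not pass (median 0.15). The phosphatase genes DUSP8 and DUSP7 rose by log2 changes of 0.60 and 0.35 and the ubiquitin ligase CBL by 0.43. LZTR1, which targets RAS proteins for removal, fell by 0.26 on the log2 scale and DUSP2, named after its value was seen, to 0.597 times control. Several of these genes are long, such as SOS1 (8528 bases) and CBL (9481 bases), or short, such as HRAS (1076 bases), and the lists moved with the length corrections. With length and GC trends removed the cascade had 9 higher and 3 lower genes (median 0.07), the promoter factors 7 and 1 (0.14), the immediate early genes outside the members 10 and 6 (0.09) and the further feedback genes 6 and 1 (0.04). In that setting SOS1 was at 0.24 and RASA1 at 0.26, both still called. NF1 (0.05), HRAS (-0.23), GRB2 (0.08), RPS6KA4 (-0.18), RHOB (0.07) and DUSP2 (-0.52) were no longer called, and PLAUR was called higher (0.11, adjusted p = 0.0132, edgeR). The shares called by counts in these 4 lists were 60.9%, 57.1%, 62.5% and 68.8%, against 46.4% of all genes tested and 61.8% of genes with at least 200 counts.

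**Figure D5:**
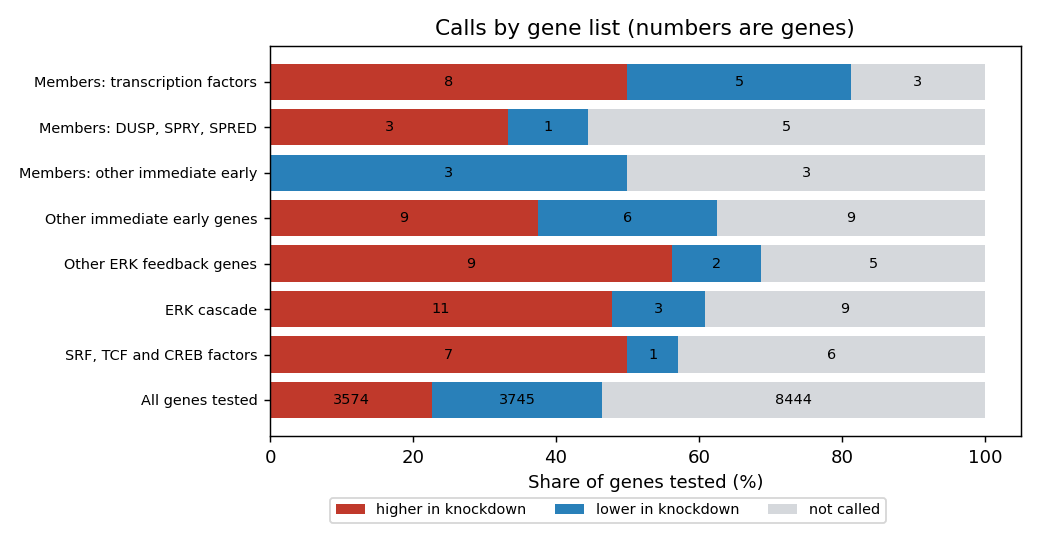
Share of tested genes that were higher in knockdown, lower in knockdown or not called (%), with the number of genes in each bar, for the 3 groups of members, the 4 other lists of the pathway and all genes tested. The transcription factors hold 8 higher and 5 lower genes, and the other immediate early members hold 3 lower and 0 higher. Of all genes tested 22.7% were higher and 23.8% lower.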

How the data were processed

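RNA was measured in 2 knockdown and 2 control libraries. Per the labels' protocols, reads were filtered with SOAPnuke 2.1.0, aligned to Sscrofa 11.1 with HISAT2 2.2.1, mapped to transcripts with bowtie2 2.3.5 and counted with RSEM 1.3.3. The deposited expected counts split shared reads in fractions. The authors made FPKM with RSEM, per the labels, and deposited TPM, which was not used here. Members, lists and alternatives were chosen with earlier results of these data known.

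Expected counts were rounded and tested with edgeR 4.0.16 in R 4.3.3 (quasi-likelihood, two-sided, TMM scaling, filterByExpr with a minimum count of 10 and a total of 15), with Benjamini-Hochberg adjustment over all 15763 genes. The standard error (SE) of a log2 change in edgeR was derived as its size over the square root of the F statistic. Intervals of 95% use that SE and a normal distribution. All members are named, and in every further pathway list the 4 genes of lowest p among those reaching a mean of 1 FPKM in the higher group. Alternatives used DESeq2 1.42.0, limma 3.58.1 and mgcv 1.9.3 (smooth trends). RefSeq gave positions and sequences. Labels give 2 independent experiments. For genes with whole counts, at least 20 per pair, squared differences within groups averaged 1.26 (knockdown) and 1.15 (control) times sampling variance. The p-values therefore reflect the spread among these libraries alone, which may be technical. An exact permutation test of 2 against 2 cannot go below p = 0.333.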

Additional observations from a re-analysis of the deposited data

How the results depend on the processing

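FOS, FOSL1 and JUN were called higher, and JUNB, ETV4, DUSP4, IER2 and IER5 lower, in the 15 fits run, the main one and 14 alternatives. Alternatives with edgeR RLE scaling or no low-count filter changed the call of no member. DESeq2 called 4441 genes, 9 members higher and 6 lower, and limma on log2(FPKM + 1) without a filter called 4438 genes, 4 members higher and 7 lower. ZBTB16 missed the threshold with DESeq2 (log2 -0.36, adjusted p = 0.113), with limma on log2(FPKM + 1) (-0.23, 0.0685; 0.101 without a filter) and on log2(FPKM + 0.1) (-0.36, 0.0719). IER3 reversed with the length trend removed (0.04) and with length and GC trends removed (0.12). The causes were not tested. The last of these alternatives was chosen after seeing the data.

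With the replicate number as a block 7480 genes, 11 members higher and 10 lower were called, BTG2 being added. Deviations of same-numbered libraries did not correlate (r = 0.00036 across 15763 genes, which are not independent), and the labels do not say that a number marks a shared experiment. Leaving out each library gave 6040 to 6265 genes called, 9 to 12 members higher, 7 to 9 lower and a log2 change of ZBTB16 between -0.39 and -0.34. The 12th higher member is EGR3 without control replicate 2, where the remaining control library has 0 counts. EGR3 fell under the low-count filter and was not called without it (log2 1.10, adjusted p = 0.293, edgeR). EGR2, EGR4, FOSB and KLF2, with the fewest counts among tested members, had the widest intervals.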
